A study of Mus musculus with 59 samples.

Results

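NMDA receptor subunit genes were followed in bulk RNA-seq of mouse prefrontal cortex. The set held 6 genes chosen by name, Grin1, Grin2a, Grin2b, Grin2c, Grin2d and Grin3a, of 18088 genes in the deposited table. All 6 passed the filter on low values, a mean normalized count of at least 10. A normalized count is the number of reads assigned to a gene divided by a size factor for its library.

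The mice were of the C57BL/6J strain, either wild type (WT) or heterozygous for a Shank3 knock-in (HT). Shank3 encodes a scaffold protein of excitatory synapses. The headers of all 59 columns, WT included, carry the prefix L68P, and the labels do not describe the allele. Pups received vehicle, fluoxetine or lithium through the milk of the dam from postnatal day 3 to 24 and were analysed on day 25, in both sexes. Each of the 12 groups of genotype, drug and sex held 5 libraries, except 4 for WT lithium females, which gave 59 libraries in 6 arms. Litters were not labelled, so each library was taken as independent. The p-values therefore measure the spread between libraries, and pups that shared a dam could not be identified.

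The NMDA receptor is a glutamate-gated calcium channel assembled from an obligatory GluN1 subunit, encoded by Grin1, and modulatory GluN2 or GluN3 subunits. GluN2B (Grin2b) predominates in the young forebrain, and GluN2A (Grin2a) increases during postnatal development, which shortens the synaptic current. GluN2C (Grin2c) and GluN2D (Grin2d) form channels with weaker magnesium block, and in forebrain Grin2d is best known from interneurons. GluN3A (Grin3a) is most abundant in juvenile brain and lowers calcium permeability.

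All 6 genes lie on the minus strand in GRCm38 with GENCODE vM21. Grin1 (ENSMUSG00000026959) spans chr2:25291181-25319187, Grin2a (ENSMUSG00000059003) spans chr16:9567898-9995560 and Grin2b (ENSMUSG00000030209) spans chr6:135713233-136173511. Grin2c (ENSMUSG00000020734) spans chr11:115249169-115267243, Grin2d (ENSMUSG00000002771) spans chr7:45831883-45878378 and Grin3a (ENSMUSG00000039579) spans chr4:49661611-49845744. Transcript GC content split the genes, at 59.4% for Grin1, 62.1% for Grin2c and 65.0% for Grin2d against 44.8% for Grin2a, 45.7% for Grin2b and 49.2% for Grin3a. In HT lithium, differences were correlated with GC content across all genes, as given below. Other comparisons had such a trend too, with Spearman rho = -0.42 for HT against WT under vehicle and 0.36 under lithium. For the lithium effect in HT minus that in WT it was 0.50, and for lithium in WT it was 0.007.

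Promoters are shown for Grin1, Grin2c and Grin2d, the only 3 of the 6 with an entry in the RefSeq promoter table of GRCm38.p6. The same 3 passed a test in some comparison, and a link between promoter features and those tests was not tested. Each line gives the 250 bases upstream of the RefSeq start, 5′ to 3′ on the minus strand, with CpG dinucleotides in capitals. The windows are chr2:25319188-25319437 for Grin1, chr11:115267244-115267493 for Grin2c and chr7:45866682-45866931 for Grin2d, and the last lies inside the longer GENCODE model of Grin2d.
Grin1: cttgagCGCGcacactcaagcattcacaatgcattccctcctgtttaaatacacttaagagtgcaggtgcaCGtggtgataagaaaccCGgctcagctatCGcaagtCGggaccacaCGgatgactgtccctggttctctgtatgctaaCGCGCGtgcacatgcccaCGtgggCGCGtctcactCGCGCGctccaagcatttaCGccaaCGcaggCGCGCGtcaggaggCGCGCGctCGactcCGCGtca
Grin2c: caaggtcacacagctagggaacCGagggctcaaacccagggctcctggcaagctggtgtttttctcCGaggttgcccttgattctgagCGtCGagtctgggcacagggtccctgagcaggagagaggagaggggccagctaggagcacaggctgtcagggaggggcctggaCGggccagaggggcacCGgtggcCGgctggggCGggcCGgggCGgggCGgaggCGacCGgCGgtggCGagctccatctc
Grin2d: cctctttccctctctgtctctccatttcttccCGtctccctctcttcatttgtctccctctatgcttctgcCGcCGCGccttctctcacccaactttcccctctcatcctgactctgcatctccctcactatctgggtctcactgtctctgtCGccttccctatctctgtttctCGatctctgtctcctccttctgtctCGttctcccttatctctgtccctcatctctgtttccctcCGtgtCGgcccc
The Grin1 window held 27 CpG, more than 91.4% of 32851 promoter windows of the same length, whose median was 6. The Grin2c window held 15 and the Grin2d window 9. The GC box GGGCGG, searched on both strands, occurred 3 times in the Grin2c window and not in the other two, and 32.7% of all windows held at least 1.

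The libraries held 22984556 to 35969254 assigned reads, and mitochondrial genes took 2.70% to 9.47% of them. The cortical excitatory neuron markers Slc17a7, Neurod6, Tbr1, Nrgn and Emx1 were above 0 in every library. Markers of the olfactory bulb, which adjoins the prefrontal cortex, varied far more. A bulb index, the mean over 8 bulb markers of each library's value divided by the gene's mean over libraries, ran from 0.0686 to 4.29 with a median of 0.453. It exceeded 2.5 in 8 libraries, of which 3 were WT fluoxetine females, 3 HT vehicle, 1 HT fluoxetine and 1 HT lithium. Choroid plexus markers summed to 52059 in 1 HT vehicle library and to at most 332.5 in the arms without HT vehicle mice. Shank3 itself did not check the genotype labels, because total counts do not separate alleles. Its log2 difference between HT and WT under vehicle was -0.03 (limma adjusted p = 0.987), and under lithium it rose by 0.43 in HT (adjusted p = 0.000272).

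Levels were first compared between genes per kilobase of exon, since longer genes collect more reads. Grin1 had the highest level, 1604 ± 220.5 normalized counts per kb (SD, n = 59). Grin2b followed at 781 ± 121, Grin2a at 347 ± 56.8, Grin2c at 298 ± 50.7, Grin3a at 133 ± 14.3 and Grin2d at 75.0 on average, from 53.7 to 126. Grin1 was above Grin2b and Grin2b above Grin2a in 59 of 59 libraries. Grin2a and Grin2c did not separate, since Grin2a was the higher in 43 of 59 libraries and their ranges, 219 to 491 and 219 to 440 per kb, overlapped almost wholly. Grin2c was above Grin3a in 59 of 59 and Grin3a above Grin2d in 58 of 59.

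**Figure D1:**
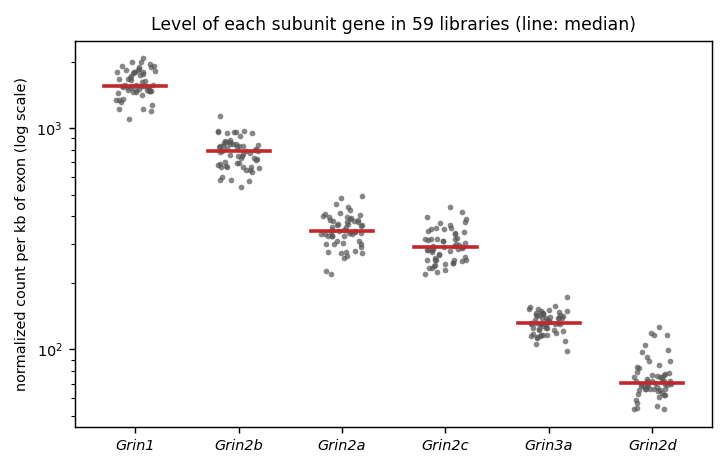
Normalized count per kb of exon (log scale) of each subunit gene, one point per library, 59 libraries, with a line at the median. Grin1 is highest and Grin2d lowest, and Grin2a and Grin2c overlap.

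Among the GluN2 genes, Grin2b made up 51.8% ± 3.73 of the summed level per kb (SD, n = 59). Grin2a made up 23.1% ± 2.36, Grin2c 20.1% ± 4.18 and Grin2d 5.07% ± 1.36. The summed GluN2 level was 0.946 ± 0.0998 of the Grin1 level. With the longest transcript in place of all exons the order of the 6 genes was the same, but this ratio was 0.453, so it depends on the length used.

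The first question was whether the Shank3 knock-in changed the subunit genes within a drug. No subunit gene passed between HT and WT, at an adjusted p under 0.05, under vehicle, fluoxetine or lithium. Under vehicle, Grin1 ran from 11888 through a median of 14603 to 18323 in WT and from 10662.5 through 14493 to 17325 in HT. The WT and HT ranges overlapped broadly. The log2 difference was -0.09 ± 0.08 (SE) with a 95% interval of -0.25 to 0.07. Grin2c was 1567 ± 274 in WT and 1385 ± 179 in HT (SD, n = 10 each), a log2 difference of -0.17 (95% interval -0.35 to 0.01), the largest of the 6 under vehicle. Genes within 2 GC points of Grin2c had a median of -0.08 there. Grin2a, the maturation-linked GluN2 gene, differed by -0.01 (-0.20 to 0.19) and Grin2b by 0.08 (-0.11 to 0.26).

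Under fluoxetine, Grin3a was the one subunit gene with an unadjusted p under 0.05. It ran from 1389 through 1595 to 1863 in WT and from 1449 through 1804 to 2116 in HT. The HT libraries sat higher with wide overlap, and the log2 difference of 0.14 ± 0.06 did not pass (adjusted p = 0.368). Under lithium the 6 differences lay between -0.10 for Grin2b and 0.08 for Grin1. Across all 16599 genes tested, limma called 0 (0%) in each of these comparisons. Unadjusted p-values under 0.05 numbered 1074 under vehicle, 1883 under fluoxetine and 1839 under lithium. On reads recovered from the normalized counts, edgeR called 0, 1 and 0 genes and DESeq2 6, 19 and 37, none of them a subunit gene.

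**Figure D2:**
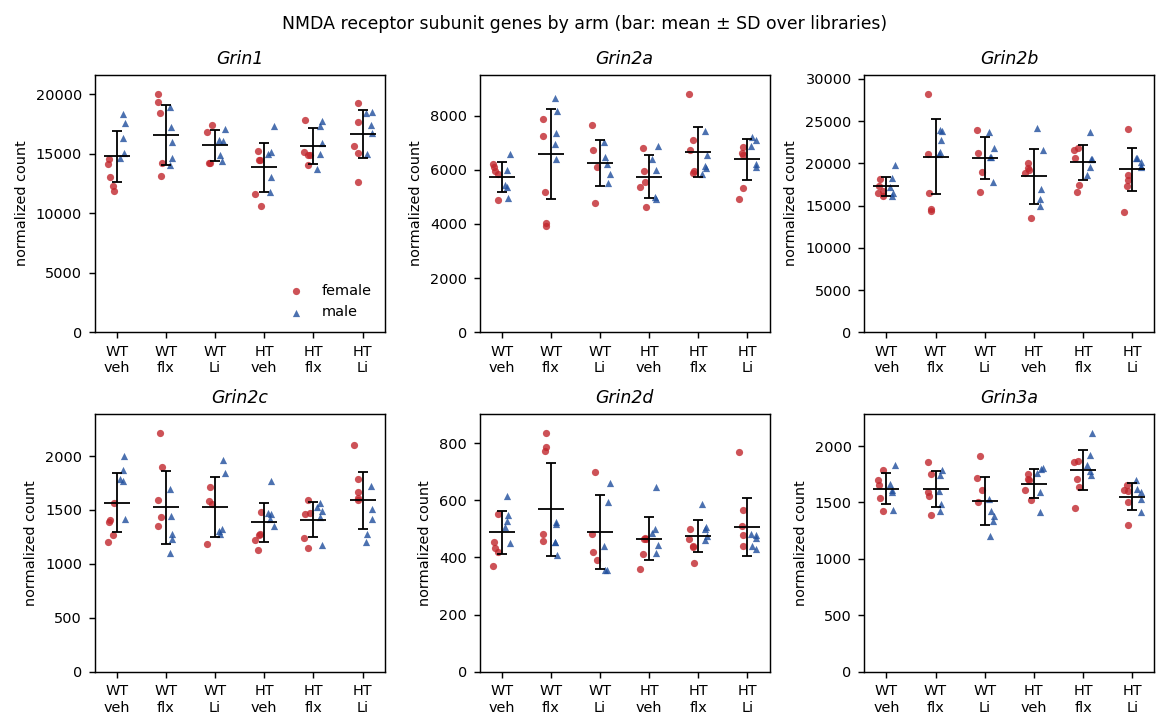
Normalized count of each subunit gene in 6 arms (veh, vehicle; flx, fluoxetine; Li, lithium), with females as circles and males as triangles. Bars are the mean ± SD over 9 or 10 libraries, and the arms of a genotype or drug overlap in all 6 genes.

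Lithium in HT mice gave the only drug comparison in which a subunit gene passed. Grin1, the obligatory subunit, ran from 10662.5 through a median of 14493 to 17325 in HT vehicle and from 12677 through 17097 to 19304 in HT lithium. The lithium libraries were higher, with 9 of 10 above the vehicle median and 5 of 10 above every vehicle library, although the ranges overlapped. Grin1 rose by 20.4%, a log2 change of 0.27 ± 0.08 (SE; limma adjusted p = 0.0112). It was 1 of 6 subunit genes called, in a comparison that called 3374 of 16599 genes (20.3%), so the share of subunit genes called was near the background.

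The other 5 did not pass in HT lithium. Grin2c went from 1385 ± 179 to 1588 ± 260 (SD, n = 10 each), a log2 difference of 0.19 (adjusted p = 0.13). The differences were 0.16 for Grin2a, 0.11 for Grin2d, 0.07 for Grin2b and -0.10 for Grin3a, with adjusted p-values from 0.229 to 0.631. The median over the 6 genes was 0.13, and the median over all genes was -0.0018. Within females, all 5 lithium values of Grin2c (1594, 1609, 1669, 1787 and 2102) exceeded all 5 vehicle values (1132, 1221, 1267, 1275 and 1482). The share of all tested genes that separated in this way is not given here, so this separation has no background to be set against. In males the Grin2c values overlapped, at 1207 to 1721 under lithium and 1356 to 1765 under vehicle.

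Differences in HT lithium rose with GC content across genes. Over 16588 genes with known GC content, the log2 difference correlated with GC at Spearman rho = 0.47. Genes within 2 GC points of Grin1 had a median of 0.15, where Grin1 itself had 0.27. After the GC trend was removed within each library, Grin1's difference was 0.14 (adjusted p = 0.169) and it no longer passed. The call was also lost without the 8 libraries of high bulb index (0.16, adjusted p = 0.134), of which 3 were HT vehicle. With the bulb index as a covariate it held (0.22, adjusted p = 0.00489), and Grin2c (0.24, adjusted p = 0.0156) and Grin2d (0.21, adjusted p = 0.0118) passed as well. That fit called 4514 of 16599 genes. The Grin1 call held in each of 59 fits that left out a single library, at 0.23 to 0.31. In females only, Grin1 did not pass (0.27, adjusted p = 0.183) while Grin2c did (0.46, adjusted p = 0.0212), and in males only Grin1 did not pass (0.26, adjusted p = 0.0549).

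Glial marker levels also differed in HT lithium, not all in the same direction. Of 6 astrocyte markers 4 rose (median log2 difference 0.23), and their sum ran from 25742 to 35035 in HT vehicle and from 30647 to 39763 in HT lithium. Of 3 oligodendrocyte precursor markers 2 rose (median 0.35, sums 3890 to 6216 and 5211 to 6904), and of 5 microglia markers 3 rose (median 0.22). Of all 16599 genes tested, 10.9% rose in this comparison. The sum of 6 myelin markers was lower, with a median of 139551 (69638 to 164242) in HT vehicle and 97220 (47668 to 157246) in HT lithium. These ranges overlapped widely, and the number of myelin markers that passed is not given here. Outside the glial lists, the median sum of endothelial markers was 3089 in HT vehicle and 3750 in HT lithium. For striatal markers it was 2456 and 3314. No marker of cortical excitatory neurons or olfactory bulb passed there. The median bulb index still differed, at 0.703 in HT vehicle and 0.201 in HT lithium, and in males at 1.04 and 0.117. In females it differed the other way, at 0.453 and 1.37. The part of these markers in the Grin1 rise was not tested.

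In WT mice lithium changed no subunit gene past the threshold, while 2120 genes passed (12.8%). Grin2b, the juvenile GluN2 gene, had the largest difference. It ran from 16092 through 16984 to 19750 in WT vehicle and from 16603 through 20750 to 23924 in WT lithium, and 8 of 9 lithium libraries lay above the vehicle median. The log2 difference was 0.25 ± 0.09 (adjusted p = 0.0773). Grin2a differed by 0.12, Grin1 by 0.10, Grin2d by -0.02, Grin2c by -0.04 and Grin3a by -0.09. Unadjusted p-values under 0.05 numbered 1 of 6.

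Grin2b in WT lithium lay close to the threshold and changed sides with the processing. It passed without the high-bulb libraries, none of which belonged to these arms (0.25, adjusted p = 0.0089), and when WT lithium female 1 (0.29, adjusted p = 0.0421) or WT fluoxetine female 5 (0.25, adjusted p = 0.0422) was left out. Grin2b has long exons, and with the trend on transcript length removed the difference was 0.02 (adjusted p = 0.951). Whether lithium acted differently on a subunit gene in HT than in WT was tested as an interaction. None of the 6 passed (0 of 6, with 1 of 16599 genes called, 0.00602%). The interaction was 0.23 for Grin2c, the largest of the 6 (adjusted p = 0.471), 0.17 for Grin1 (adjusted p = 0.554) and -0.17 for Grin2b (adjusted p = 0.62). Genes within 2 GC points had a median interaction of 0.18 for Grin2c, 0.14 for Grin1 and -0.05 for Grin2b. The count over all genes varied with the processing, from 0 in females only to 629 in males only, with 34 by DESeq2 and 60 with the bulb covariate.

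**Figure D3:**
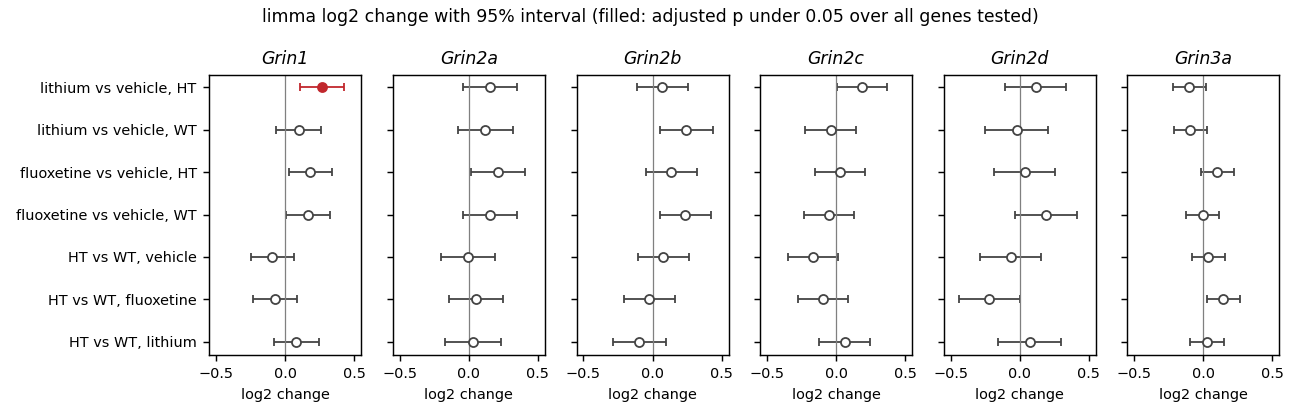
limma log2 change with its 95% interval for each subunit gene in 4 drug comparisons and 3 genotype comparisons. Filled symbols have an adjusted p under 0.05 over 16599 genes, and Grin1 in HT lithium (0.27) is the only one.

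Fluoxetine changed no subunit gene past the threshold in either genotype. It changed 939 genes in WT (5.66%) and 46 in HT (0.277%). In WT, Grin2b ran from 16092 through 16984 to 19750 under vehicle and from 14409 through 21231 to 28242 under fluoxetine, a log2 difference of 0.24 ± 0.09 (adjusted p = 0.111). The fluoxetine values were the more spread out, with 7 of 10 above every vehicle library and 2 of 10 below every one. Grin1 differed by 0.17 (adjusted p = 0.212), Grin2d by 0.19, Grin2a by 0.16, Grin2c by -0.05 and Grin3a by -0.01. In HT the differences were 0.21 for Grin2a (adjusted p = 0.369), 0.18 for Grin1, 0.14 for Grin2b, 0.10 for Grin3a, 0.03 for Grin2d and 0.03 for Grin2c.

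Of the 10 WT fluoxetine libraries, 3 females had a bulb index over 2.5. Without the 8 high-bulb libraries, 3 subunit genes passed in WT fluoxetine. Grin2b then differed by 0.45 (adjusted p = 0.000149), Grin2a by 0.39 (adjusted p = 0.00202) and Grin1 by 0.28 (adjusted p = 0.0117), in a fit that called 1945 genes. This cut took no WT vehicle library, and only females 3 and 5 (bulb index 0.107 and 0.0764) stayed among the WT fluoxetine females. The WT vehicle median was 1.198, so the arms of that fit were not alike in bulb markers. The part of this imbalance in the larger differences was not tested. In WT males, none of which had an index over 2.5, all 5 fluoxetine values of Grin2b (21141, 21322, 22810, 23853 and 23970) exceeded all 5 vehicle values (16122, 16493, 17192, 18290 and 19750). The median bulb index still differed between these groups, at 0.196 in WT fluoxetine males and 1.17 in WT vehicle males. How many of all genes separated fully between them is not given here. With the length trend removed and all libraries kept, Grin2b differed by 0.08 (adjusted p = 0.731) in WT fluoxetine.

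Sex differences were tested next. The difference between the fluoxetine effect in WT females and that in WT males passed for Grin2c and Grin2d, 2 of 6 subunit genes, where 1438 of 16599 genes passed (8.66%). Grin2c in vehicle females was 1200, 1271, 1384, 1408 and 1564, and in fluoxetine females 1351, 1439, 1591, 1895 and 2215. In males it was 1415, 1765, 1785, 1873 and 2002 under vehicle and 1104, 1234, 1275, 1445 and 1694 under fluoxetine. Fluoxetine females thus lay mostly above vehicle females, and fluoxetine males mostly below vehicle males. The interaction was 0.69 ± 0.18 (log2, SE; limma adjusted p = 0.0140).

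Grin2d in vehicle females was 371, 419, 435, 453 and 553, and in fluoxetine females 457, 482, 773, 788 and 836. In males it was 450, 509, 526, 550 and 614 under vehicle and 408, 454, 455, 517 and 523 under fluoxetine. The 3 highest values in the series' WT females were WT fluoxetine females 1, 2 and 4, which are also the 3 with a bulb index over 2.5 (3.71, 2.60 and 4.29). The interaction was 0.71 ± 0.22 (adjusted p = 0.0358). Grin2a went the other way without passing (-0.49, adjusted p = 0.0945), and Grin1 differed by 0.38 (adjusted p = 0.115).

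Adjustments for bulb markers disagreed on which interactions passed. With the bulb index as a covariate Grin2c (0.52, adjusted p = 0.0255) and Grin2d (0.39, adjusted p = 0.0446) still passed, as did Grin1 (0.56, adjusted p = 0.00529), among 1863 genes in all. Grin1 also passed with quantile normalization (0.46, adjusted p = 0.00662). Neither the Grin2c nor the Grin2d interaction passed without the high-bulb libraries, where Grin2c was 0.50 (adjusted p = 0.188) and Grin2d 0.25 (adjusted p = 0.577). In that fit 2 genes in all passed, and 3 of the 5 WT fluoxetine females were left out. Fewer libraries can lose a call by themselves, and the Grin2c estimate was close under both adjustments (0.52 and 0.50). With the GC trend removed the Grin2c and Grin2d interactions were 0.35 (adjusted p = 0.290) and 0.29 (adjusted p = 0.506), and 1 gene passed. Grin2d also missed the threshold in 10 of the fits that left out a single library, at adjusted p-values up to 0.087. These were the fits without WT fluoxetine female 1, 2 or 4, WT fluoxetine male 1, WT vehicle female 1, 3 or 4, or WT vehicle male 1, 3 or 4. In the other sex interactions no subunit gene passed. The nearest was Grin2c for sex by lithium in HT (0.53, adjusted p = 0.167), where 2 genes passed (0.012%). In HT mice the fluoxetine interaction was 0.17 for Grin2c and -0.00 for Grin2d (adjusted p over 0.99 for both). Between vehicle-treated WT females and males no subunit gene passed, while 262 genes did (1.58%). Female minus male, Grin2c differed by -0.37 (adjusted p = 0.115) and Grin1 by -0.32 (adjusted p = 0.124).

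**Figure D4:**
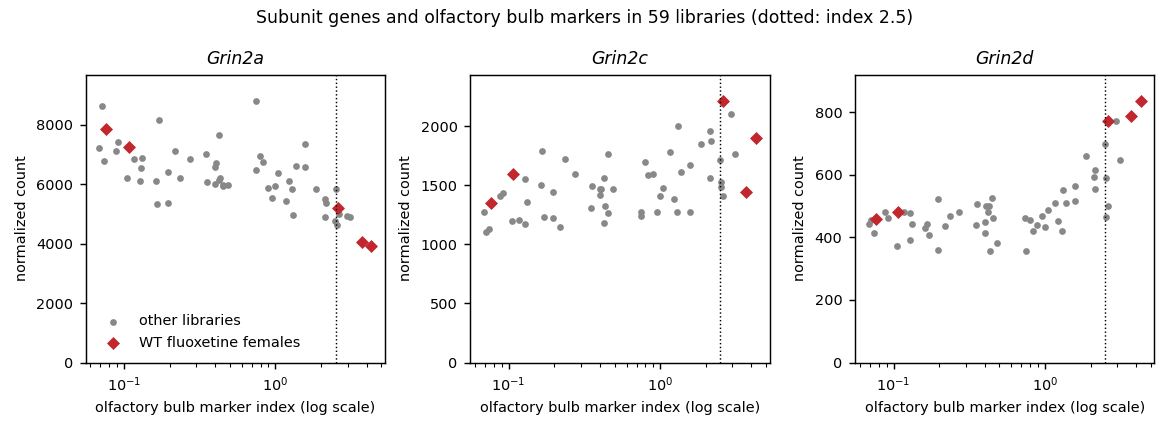
Normalized counts of Grin2a, Grin2c and Grin2d against the olfactory bulb marker index (log scale) in 59 libraries, with the 5 WT fluoxetine females as red diamonds and the index of 2.5 dotted. Grin2a is low and Grin2d high in the libraries of highest index, among them 3 WT fluoxetine females.

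The Grin2a to Grin2b ratio is a common transcript measure of the juvenile-to-mature GluN2 switch, and being a ratio within a library it does not depend on the size factor. It averaged 0.322 ± 0.0297 in normalized counts (SD, n = 59), or 0.446 per kb of exon. In WT vehicle it ran from 0.301 through 0.331 to 0.376, and in WT lithium from 0.267 through 0.310 to 0.321. All 9 WT lithium libraries lay below the WT vehicle median and 4 lay below every WT vehicle library. The log2 difference was -0.13 (exact permutation test within sex, two-sided, p = 0.00693, adjusted over 7 comparisons 0.0485).

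In HT the ratio ran from 0.264 through 0.315 to 0.353 under vehicle and from 0.285 through 0.338 to 0.383 under lithium. Here 7 of 10 lithium libraries were above the vehicle median, and the difference of 0.08 did not pass (exact permutation adjusted p = 0.244). The lithium effect on the ratio differed between genotypes by 0.21 on the log2 scale (permutation test with genotype labels permuted within drug and sex, p = 0.0149, adjusted over 2 interactions 0.0299). HT and WT under lithium differed by 0.13 (exact permutation adjusted p = 0.188).

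Both calls lay near the threshold. The WT lithium call was lost in 15 of the 19 repeats that left out one of its libraries (adjusted p up to 0.145), and held without WT lithium male 2 or 4, WT vehicle female 2 or WT vehicle male 4. With the length trend removed the WT lithium difference was -0.06 (adjusted p = 0.235). The interaction was lost in 5 repeats, without HT lithium female 2 or 3, HT vehicle male 3, WT lithium female 1 or WT vehicle female 3 (adjusted p up to 0.0618).

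Fluoxetine did not change the ratio past the threshold. It was 0.314 ± 0.031 in WT fluoxetine against 0.332 ± 0.0228 in WT vehicle, and 0.331 ± 0.0312 in HT fluoxetine against 0.314 ± 0.0305 in HT vehicle (SD, n = 10 each). The log2 differences were -0.08 in WT and 0.08 in HT (exact permutation adjusted p = 0.244 each). The interaction with genotype was 0.16 (permutation adjusted p = 0.0618). It passed in 8 repeats that left out a single library (adjusted p down to 0.0322), namely HT fluoxetine male 4, HT vehicle female 1 or 2, HT vehicle male 1, WT fluoxetine female 3, WT fluoxetine male 4, WT vehicle female 2 or WT vehicle male 4.

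**Figure D5:**
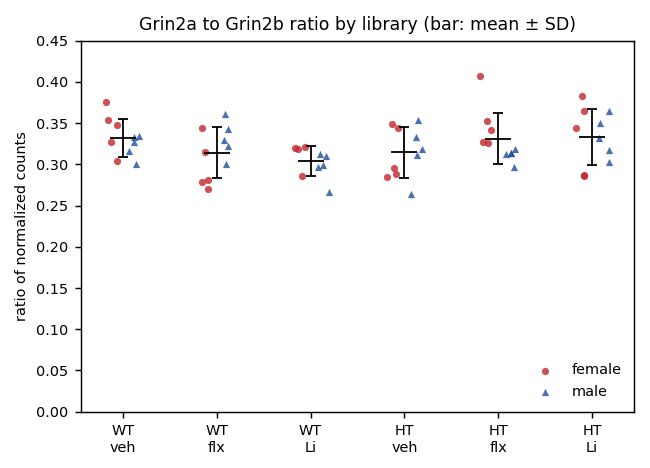
Ratio of Grin2a to Grin2b normalized counts in each library by arm, females as circles and males as triangles, with bars at the mean ± SD. All 9 WT lithium libraries lie at or below 0.321, while the WT vehicle median is 0.331.

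How the subunit genes varied together was read from deviations from the 12 group means over 59 libraries, for 15 pairs. Grin2a and Grin2b moved together most closely (Pearson r = 0.84, Spearman rho = 0.82, permutation p adjusted over the pairs 2.5e-05 and 3.75e-05, r = 0.81 without the 2 libraries farthest from the median). Grin2c and Grin2d also moved together (r = 0.57, rho = 0.54, adjusted p = 2.5e-05 and 5e-05, r = 0.53 without 2 libraries), and Grin2a and Grin2c moved oppositely (r = -0.63, rho = -0.71, adjusted p = 2.5e-05 and 3.75e-05, r = -0.60 without 2 libraries). Grin1 followed Grin2a (r = 0.51, rho = 0.46, adjusted p = 5.62e-05 and 0.000514, r = 0.52 without 2 libraries) and Grin2b (r = 0.56). With each library's GC trend removed, Grin1 followed both more closely (r = 0.82 with Grin2a and 0.81 with Grin2b). Grin3a stood most apart, with r between -0.39 and 0.35.

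The same deviations were set beside the mean of the log2 deviations of each list's markers, as part of 72 relations. Grin2a, Grin2b and Grin1 were higher where cortical excitatory markers were higher (r = 0.83, 0.81 and 0.69) and lower where bulb markers were higher (r = -0.68, -0.64 and -0.64). Grin2d had the opposite signs, r = -0.67 with excitatory and 0.74 with bulb markers. Grin2c was higher with astrocyte (r = 0.60), bulb (r = 0.57) and myelin markers (r = 0.54). Each of these 11 correlations had a permutation p of at most 2e-05 (adjusted over the 72, at most 6.86e-05), where 1e-05 is the smallest that 100000 draws can give. In size, Spearman rho lay between 0.57 and 0.77 and r without the 2 farthest libraries between 0.53 and 0.78, with the same signs. In bulk tissue, fewer cells of a type and less RNA per cell cannot be told apart. In WT fluoxetine, 3 of 6 myelin markers fell (median log2 difference -0.63), where 2.11% of all tested genes fell. The sum of the 6 markers ran from 84818 to 250020 in WT vehicle and from 53076 to 170414 in WT fluoxetine. The part of the myelin markers in the subunit values of that arm was not tested.

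The genes most like each subunit gene, by Pearson r of the same deviations among 16599 genes and given as a description, differed between members. Grin1 was closest to Dnm1 (0.93), which encodes the neuronal dynamin of synaptic vesicle endocytosis, to Ap2a1 (0.93) and to Celsr2 (0.92). Grin2a was closest to Lgi1 (0.91), a secreted synaptic protein, to Hecw1 (0.91) and to Smim13 (0.91). Grin2b was closest to Atp8a1 (0.90), Nedd4l (0.89) and Hecw1 (0.89), so Hecw1 stood in the first 3 of both. Grin2d was closest to Slc32a1 (0.91), the vesicular GABA transporter of inhibitory neurons, to Iqsec3 (0.89) and to Fam20c (0.88). With the mean of 7 inhibitory interneuron markers, Slc32a1 among them, Grin2d had only r = -0.10 (permutation p adjusted over the 72 relations 0.513). Grin2c was closest to Hmbox1 (0.81), Lamb2 (0.80) and Hspg2 (0.79), the last a basement membrane proteoglycan. For Grin3a no gene exceeded Hs2st1 (0.71).

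Genes that supply, anchor or modify the receptor were counted from lists of 68 genes, of which 66 were tested. Between genotypes none passed. In HT lithium 13 of 66 rose and 1 fell (1809 of all genes rose, 10.9%, and 1565 fell, 9.43%), with a median log2 difference of 0.08. In WT lithium 4 rose and 1 fell (7.66% and 5.11% of all genes), in WT fluoxetine 2 rose and 1 fell (3.54% and 2.11%), and in HT fluoxetine 1 rose and none fell (0.205% and 0.0723%). Comparisons within a genotype share their vehicle libraries, so their values are given side by side only.

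Among 10 co-agonist genes, Slc1a4, a transporter of serine and other neutral amino acids, rose in all 4 drug comparisons. Its log2 changes were 0.16 in WT fluoxetine, 0.22 in HT fluoxetine, 0.19 in WT lithium and 0.26 in HT lithium (SE 0.05 each). Psat1, of serine synthesis, fell by 0.15 in WT fluoxetine, and Shmt2, which interconverts serine and glycine, rose by 0.16 in HT lithium. Of 13 scaffold and trafficking genes, 5 rose in HT lithium, with Apba1 at 0.26 and Pacsin1 at 0.23 the named ones, and none passed in the other 3 drug comparisons.

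Of 17 kinase and phosphatase genes, Dapk1, a kinase that binds GluN2B, rose by 0.24 in WT lithium and 0.21 in HT lithium, and Src, which enhances NMDA currents, rose by 0.21 in HT lithium, where 3 rose in all. Mib2, a ubiquitin ligase, was the 1 of 9 turnover genes that rose in HT lithium (0.29). Among partner and calcium-signalling genes, Ephb2, a receptor that clusters NMDA receptors, rose by 0.37 in HT lithium. Calm2, a calmodulin gene, fell by 0.26 in WT lithium and by 0.23 in HT lithium. The neuronal glutamate transporter gene Slc1a1 rose by 0.18 in WT lithium, the 1 of 3 uptake genes to do so.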

How the data were processed

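Prefrontal cortex RNA was made into stranded mRNA libraries, per the labels' protocols. The submitters' processing notes name Salmon 0.11.2, R 3.6.0, DESeq2 1.19.11 and GRCm38. The values, unit signal, are normalized counts deposited by the authors. Every value was a whole multiple of its library's smallest step (100.0% within 0.001 reads), which recovered 22984556 to 35969254 reads per library. Normalized counts plus 1 were log2-transformed, and genes with a mean of at least 10 (16599 of 18088) were fitted with limma 3.58.1 (trend, robust; 12 group means, 47 residual degrees of freedom, R 4.3.3), with Benjamini-Hochberg adjustment within each comparison and a threshold of 0.05. Interactions are the drug effect in HT minus that in WT, or in females minus that in males. The ratio was tested by permutation in Python 3.11.15 with SciPy 1.17.1. The script was tested on simulated data.

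All 6 subunit genes were named throughout. Of each pathway list, up to 2 genes per direction with the smallest p past the threshold were named per drug comparison, and the 3 most correlated genes per subunit gene. The members and lists were chosen with earlier results of these data known. Alternatives were edgeR 4.0.16 and DESeq2 1.42.0 on recovered reads, quantile normalization, pseudocounts 0.5 and 5, no filter, only the groups compared, bulb index as covariate or limit, loess removal of GC or length trends, single sexes, a replicate block and each library left out. The GC and length corrections of the ratio were added after seeing the data. Grin3b and Dao were not analysed here, and some genes of the lists are not reported here.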

Additional observations from a re-analysis of the deposited data

Results flagged for a closer look

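Grin2b in HT vehicle female 1 was 13470 to the nearest 10, far below the nearest of its 5-library group, 18860. The Grin2a to Grin2b ratio was 0.2963 in HT fluoxetine male 4, where the nearest library had 0.3128, and 0.2865 in WT lithium female 1, where the nearest had 0.3186. These 3 libraries stood apart from their groups among 84 tests of a group, of which chance alone would single out about 1 in 20. The bulb index was 2.54 in HT vehicle female 1, 0.355 in HT fluoxetine male 4 and 2.49 in WT lithium female 1.

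The fluoxetine effect in WT differed between females and males for Grin2c (0.69) and Grin2d (0.71, both log2, limma interaction). WT fluoxetine females 1, 2 and 4, with a bulb index of 3.71, 2.60 and 4.29, belong to the groups compared, and without all 8 high-bulb libraries the values were 0.50 and 0.25. The lithium effect on the Grin2a to Grin2b ratio differed between genotypes by 0.21 (log2, permutation test).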

How the results depend on the processing

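No subunit gene or ratio difference that passed as reported changed sign under these alternatives. Counts of subunit genes passing in WT fluoxetine, 0 as reported, were 1 with quantile normalization, 3 with the bulb index as covariate, 3 without high-bulb libraries, 1 in females only and 2 in males only. Of 16599 genes, 2074 passed there with the bulb covariate and 1945 without high-bulb libraries. In WT lithium, 0 became 1 with quantile normalization, with only the groups compared, with the bulb covariate (3595 genes in all) and without high-bulb libraries (2735 genes in all). In HT lithium, 1 became 3 with the bulb covariate and 0 without high-bulb libraries, with the GC trend removed and in males only. All genes passing there numbered 4514 with the bulb covariate, 2312 without high-bulb libraries and 1908 with the GC trend removed. In females only the HT lithium count stayed 1, but Grin2c took the place of Grin1, whose male-only change (0.26) was close to the 0.27 reported. For sex by fluoxetine in WT, 2 became 3 with the bulb covariate and with quantile normalization, 1 with only the groups compared and 0 without high-bulb libraries or with the GC trend removed. For WT vehicle females against males, 0 became 1 with quantile normalization, 2 with the bulb covariate and 1 without high-bulb libraries. The cause of these changes was not tested.

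The ratio difference in WT lithium, -0.13 as reported, no longer passed with a replicate block (-0.12), in females only (-0.13), in males only (-0.12), with the GC trend removed (-0.12) or with the length trend removed (-0.065). The genotype by lithium difference did not pass in females only (0.22), in males only (0.20) or with the length trend removed (0.19). The genotype by fluoxetine difference passed in females only (0.37). Single-sex fits have fewer samples.

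Leaving out single libraries gave 0 to 1 subunit genes in WT fluoxetine, 0 to 1 in WT lithium and 1 to 3 for sex by fluoxetine in WT. The ratio ranges were -0.15 to -0.11 for WT lithium, 0.18 to 0.24 for genotype by lithium and 0.13 to 0.19 for genotype by fluoxetine.

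Replicate numbers did not pair the libraries. Same-numbered libraries of different groups correlated at a mean of 0.00285 (319 pairs, -0.74 to 0.87), and with the number as a block 1 subunit gene passed in HT lithium and 2 for sex by fluoxetine in WT, as without it, while the WT lithium ratio difference did not pass (-0.12, exact permutation adjusted p = 0.109). All genes passing under the alternatives, single libraries aside, numbered 402 to 2074 in WT fluoxetine, 0 to 198 in HT fluoxetine, 493 to 3595 in WT lithium, 1166 to 4514 in HT lithium, 0 to 136, 0 to 19 and 0 to 98 for genotype under vehicle, fluoxetine and lithium, 0 to 629 for genotype by lithium, 1 to 1928 for sex by fluoxetine in WT and 52 to 962 for sex in WT vehicle.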
